A study of Homo sapiens with 10 samples.

Results

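The replication-dependent histone genes encode the core histones H2A, H2B, H3 and H4 and the linker histone H1, and most of them lie in clusters on human chromosomes 6 and 1. They were taken as the rows of the 2 deposited count tables whose symbol begins with HIST1H, HIST2H, HIST3H or HIST4H. This gave 73 of 26256 rows in the table of untreated cells and 89 of 55736 rows in the table of the Nutlin-3a experiment. Both include histone pseudogenes, such as HIST1H2APS1, and the latter lists more of them. The 73 rows comprised 6 of H1, 18 of H2A, 20 of H2B, 14 of H3 and 15 of H4.

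Poly(A)-selected RNA was sequenced from MCF10A, an immortalized, non-tumorigenic human mammary epithelial cell line. In the first experiment 2 libraries of untreated parental MCF10A cells were compared with 2 libraries of MCF10A cells carrying the HRas oncogene with the G12V mutation (G12V), which were made with a viral HRas vector and selected with hygromycin. In the second experiment parental MCF10A cells received 10 µM Nutlin-3a, an inhibitor of the binding of MDM2 to p53, or the DMSO vehicle for 4 h, with 3 libraries each. All groups were grown in the same medium with EGF, insulin, hydrocortisone, cholera toxin and horse serum. Whether the G12V cells were a pool or a single clone is not given in the sources used here, and p-values measure the spread between these libraries.

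Histone genes of this group are transcribed mainly in S phase, when newly copied DNA has to be packed. Most of their mRNAs are not polyadenylated: they lack introns and end just after a short RNA hairpin, the stem-loop, which is bound by the stem-loop binding protein SLBP and cut with the help of the U7 small nuclear RNP. Several of the genes can also use a poly(A) site further downstream, and such tailed transcripts are known from differentiated and non-dividing cells. The selection of poly(A) RNA acts on the tail, so the counts below are not a measure of the whole histone mRNA pool, and the share of tailed transcripts was not tested.

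The stem-loop is shown first because it tells which histone rows end where an untailed mRNA would end. It was searched on the strand of the gene, in the first 1200 bases of each row, as 16 letters of the form GGNNNTNTNNANNNCC whose outer 6 bases on either side pair with each other around a loop of 4 bases. The pattern was found in 66 of 73 histone rows (90.4%) and in 0.411% of all 26256 rows of that table. In the table of the Nutlin-3a experiment it was found in 70 of 89 histone rows (78.7%) and in 0.289% of all rows. Only 5 different stem-loops occurred. The commonest, in 41 of the 66 rows, was the one of HIST1H1C, HIST1H2AC, HIST2H2BE and HIST3H2A. A form with the same stem and another loop was found in 10 rows, among them the H2B genes HIST1H2BC, HIST1H2BD, HIST1H2BJ and HIST1H2BK. The 14 H4 rows with a match had a stem of their own, 10 of them with the form of HIST1H4C and 4 with another loop, and HIST2H2AC alone had the fifth form. The stem-loops of the 6 histone genes with the most counts and 1 gene for each of 2 rarer forms are given below in hg19, 5′ to 3′ on the strand of the gene, with the 16 letters in capitals and 5 bases on either side.
HIST1H2BK, chr6:27114140-27114165, minus strand: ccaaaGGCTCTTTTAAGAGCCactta
HIST1H2BD, chr6:26158810-26158835, plus strand: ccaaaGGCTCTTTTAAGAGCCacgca
HIST1H2AC, chr6:26124892-26124917, plus strand: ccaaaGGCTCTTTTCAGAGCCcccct
HIST1H1C, chr6:26055967-26055992, minus strand: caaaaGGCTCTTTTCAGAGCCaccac
HIST3H2A, chr1:228645065-228645090, minus strand: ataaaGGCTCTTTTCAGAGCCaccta
HIST2H2BE, chr1:149857733-149857758, minus strand: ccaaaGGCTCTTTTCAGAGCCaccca
HIST1H4C, chr6:26104540-26104565, plus strand: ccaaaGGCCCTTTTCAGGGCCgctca
HIST2H2AC, chr1:149858936-149858961, plus strand: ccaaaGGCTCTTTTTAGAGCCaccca

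In the table of untreated cells 59 of the 66 stem-loops ended within 25 bases of the annotated gene end, at a median distance of 5 bases. The other 7 rows, HIST1H2AE, HIST1H2BD, HIST1H2BK, HIST1H3D, HIST2H2BA, HIST2H2BE and HIST2H2BF, ran on past the stem-loop, HIST1H2BK by 8073 bases, HIST1H2BD by 12746 bases and HIST2H2BE by 1728 bases. These 7 rows held 5204 counts over the 4 libraries, with a median of 90 counts a row, and the 59 rows that stop at the stem-loop held 5570 counts, with a median of 13. HIST1H2BK alone held 3592 of the 5204 counts, and a longer row can also collect more counts. In the table of the Nutlin-3a experiment, whose annotation differs, 36 stem-loops lay near the annotated end, 26 rows ran on past it, and in 8 rows the stem-loop lay past the end. There the median was 12 counts for the 26 rows, 9 of them at 0, and 4.5 counts for the 36 rows, 4 of them at 0. The canonical polyadenylation signal AATAAA, which in other genes lies shortly before the cleavage site, was present in the last 40 bases of 4 of 73 histone rows (5.48%) and of 52.5% of all rows in the table of untreated cells. In the table of the Nutlin-3a experiment it was present in 15 of 89 histone rows (16.9%) and in 28.6% of all rows. There it was in 4 of the 8 histone rows with 100 or more counts. Among the 8 histone rows with 100 or more counts in the table of untreated cells it was present in 3. Those 3 annotated ends are given below in hg19, with the signal in capitals.
HIST1H2BK, chr6:27106072-27106101, minus strand: ccttAATAAAtttgtatgccttttctctta
HIST1H2BD, chr6:26171547-26171576, plus strand: ataattAATAAAatctgcggagaattgtaa
HIST2H2BE, chr1:149856010-149856039, minus strand: tgttattAATAAAgttaccaattaatttaa

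**Figure D1:**
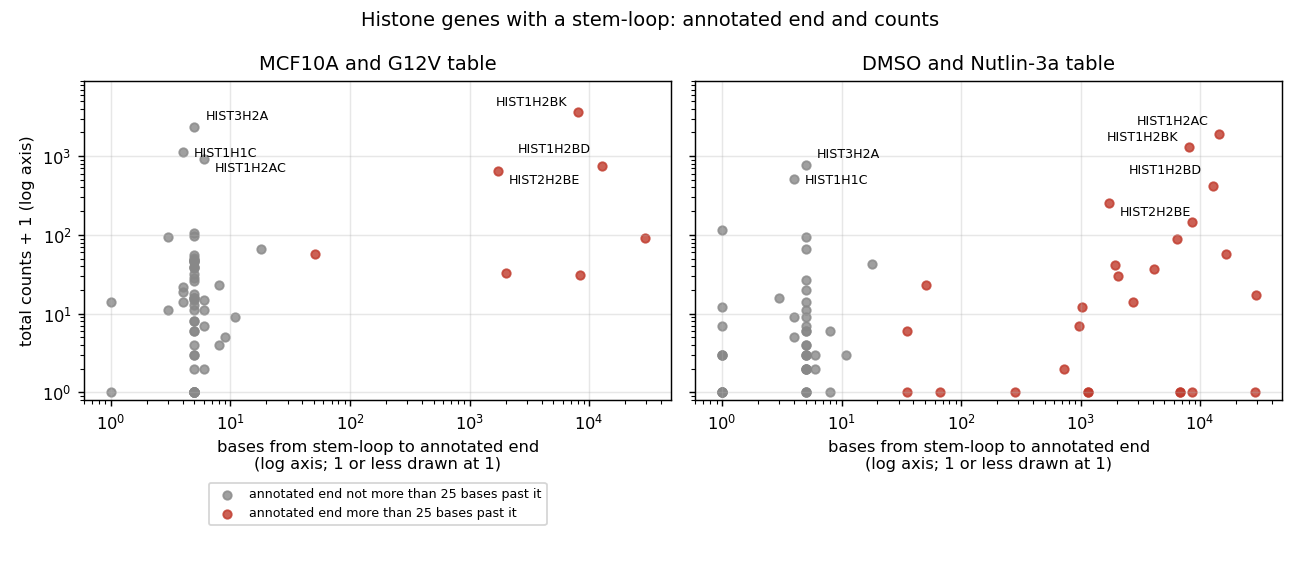
Each point is a histone gene with a stem-loop, plotted by the distance in bases from the stem-loop to the annotated gene end (log axis, distances of 1 or less drawn at 1) against its total counts plus 1 (log axis), in the table of MCF10A and G12V cells on the left and of DMSO and Nutlin-3a on the right. Red points are genes annotated more than 25 bases past the stem-loop, 7 on the left and 26 on the right; HIST3H2A and HIST1H1C have high counts although their annotated ends lie 5 and 4 bases past the stem-loop.

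Few histone genes were detected at depth. The libraries held 21538593 to 23683975 counts in the table of untreated cells and 15453226 to 17378734 counts in the Nutlin-3a experiment. Of the 73 histone rows in the former, 12 were at 0 in all 4 libraries, 14 had 1 to 9 counts in total, 39 had 10 to 99 and 8 had 100 or more. Of the 89 rows in the latter, 26 were at 0 in all 6 libraries, 35 had 1 to 9 counts, 20 had 10 to 99 and 8 had 100 or more. A count of 0 in a library allows up to 3 counts, or 0.128 to 0.136 CPM (counts per 1000000 counts of the TMM-scaled library) in the former and 0.166 to 0.197 CPM in the latter, where TMM is the trimmed mean of M-values normalization, and these limits cover counting error only. The filter on low counts left 24 of 73 and 11 of 89 rows for testing, and the highest total among the rows that it removed was 38 counts in the former and 64 counts in the latter.

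The genes of the testis, HIST1H1T (the testis linker histone), HIST1H2AA and HIST1H2BA, were at 0 in every untreated library, and HIST3H3 had 0 and 1 counts in MCF10A and 0 and 2 in G12V. In the Nutlin-3a experiment HIST1H2AA, HIST1H2BA and HIST3H3 were at 0 throughout and HIST1H1T had 2 counts in 1 Nutlin-3a library. The duplicated genes HIST2H2AA3 and HIST2H2AA4, HIST2H4A and HIST2H4B, and HIST2H3A and HIST2H3C were also listed at 0 in all 10 libraries. Their copies are nearly identical, and the table of untreated cells gives both copies of each pair the same coordinates, so that a listed 0 says nothing about their transcription. HIST2H3D, the related single gene, had 19 and 12 counts in MCF10A and 38 and 24 in G12V.

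The same 6 genes led both tables by counts, which unlike a level per length also depend on transcript length: HIST1H1C of the linker histone H1, HIST1H2AC and HIST3H2A of H2A, and HIST1H2BD, HIST1H2BK and HIST2H2BE of H2B. They made up 74.7% and 86.1% of all histone counts in the MCF10A libraries and 79.6% and 89.1% in the G12V libraries. H2B took 49.5 to 56.0% of the histone counts of a library, H2A took 26.8 to 37.9%, H1 8.51 to 13.5%, H3 2.31 to 4.75% and H4 0.82 to 3.93%. Per kilobase of annotated gene, HIST3H2A (chr1:228645065-228645560) had 4754 counts over the 4 libraries, HIST1H2AC (chr6:26124373-26124918) 1685 and HIST1H1C (chr6:26055968-26056699) 1546. HIST1H2BK (chr6:27106072-27114637) had 3592 counts in all and 419 per kilobase, a value lowered by any intron in its span of 8566 bases. Its row also overlaps that of HIST1H4I on the opposite strand, and the strand setting of the counting is not given in the sources used here.

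**Figure D2:**
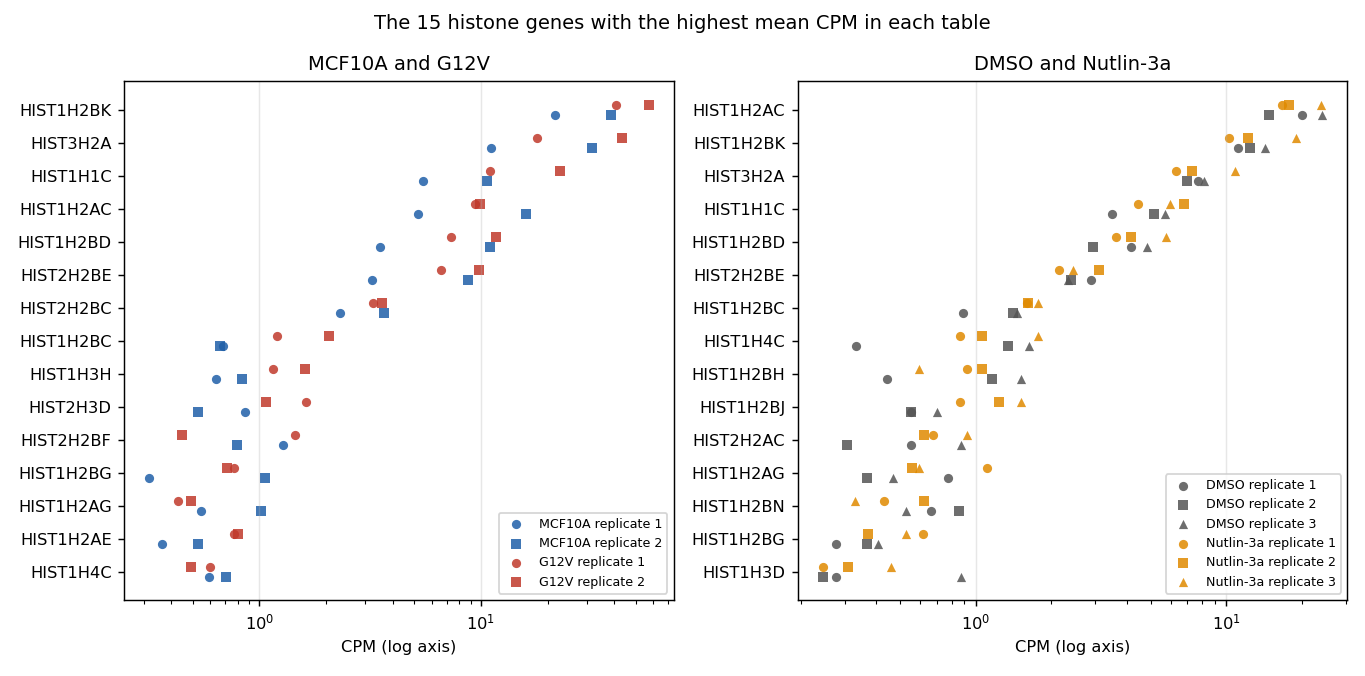
Each point is 1 library, and the 15 histone genes with the highest mean CPM (log axis) are drawn for MCF10A and G12V on the left and DMSO and Nutlin-3a on the right. HIST1H2BK reached 21.6 to 57.3 CPM on the left, where the replicate 2 libraries (squares) lie above the replicate 1 libraries (circles) in both groups for 5 of the 6 leading genes by a visible gap, and the groups on the right lie over each other for 13 of the 15 genes.

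H2A and H2B genes often stand head to head and share the stretch between their starts. The table of untreated cells held 12 such H2A and H2B pairs with 224 to 347 bases between the starts, and the counts of the partners could be far apart. HIST3H2A had 2358 counts and HIST3H2BB, whose start lies 248 bases away, had 38, or 4754 and 84.1 counts per kilobase of annotated gene. HIST1H2AC had 920 counts and HIST1H2BC, 241 bases away, had 104, or 1685 and 237 per kilobase. HIST1H2BK had 3592 counts and HIST1H2AH, 224 bases away, had 13, or 419 and 27.0 per kilobase in rows of 8566 and 481 bases. HIST2H2BE had 644 counts with 50 for HIST2H2AC, 293 bases away, or 290 and 114 per kilobase in rows of 2223 and 437 bases. Other pairs were nearly even, such as HIST1H2BG with 65 and HIST1H2AE with 56 counts. In the Nutlin-3a experiment HIST3H2A had 777 counts against 8 of HIST3H2BB, or 1567 and 17.7 per kilobase. HIST1H2BK had 1297 against 11 of HIST1H2AH, or 152 and 24.1 per kilobase.

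The promoter windows, from 250 bases before to 50 bases after each annotated start in hg19, were searched for 3 motifs of histone promoters. CCAAT, on either strand, was present in 86.3% of the 73 histone windows and in 35.7% of all windows. It was in each H1, H2A, H2B and H3 window and in 5 of 15 H4 windows. The octamer ATTTGCAT, on either strand, which the factor Oct-1 binds in H2B promoters, was in 37.0% of the histone windows and in 1.64% of all, and it was found in 15 of 20 H2B and 11 of 18 H2A windows. The windows of head-to-head genes overlap, so that a CCAAT or octamer motif between them can be counted for both partners. TATAAA, on the strand of the gene, was in 57.5% of the histone windows and in 7.48% of all. The windows of HIST3H2A and HIST1H2BK are given as 2 leading genes whose partner had few counts, with the motifs in capitals, and in these windows no motif overlaps another. The window of HIST3H2A reaches the start of HIST3H2BB and holds 3 CCAAT motifs and neither of the other motifs. That of HIST1H2BK runs past the start of HIST1H2AH and holds 6 CCAAT motifs, 1 octamer and 2 TATAAA. Of these 2 TATAAA, the one printed first lies beside the start of HIST1H2AH and the other nearer that of HIST1H2BK.
HIST3H2A, chr1:228645511-228645810, minus strand: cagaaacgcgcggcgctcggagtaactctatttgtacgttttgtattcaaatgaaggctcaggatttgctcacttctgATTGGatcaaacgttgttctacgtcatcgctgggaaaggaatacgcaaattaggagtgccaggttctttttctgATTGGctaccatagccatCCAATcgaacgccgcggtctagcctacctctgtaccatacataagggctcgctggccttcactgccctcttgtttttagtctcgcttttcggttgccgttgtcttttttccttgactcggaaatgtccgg
HIST1H2BK, chr6:27114588-27114887, minus strand: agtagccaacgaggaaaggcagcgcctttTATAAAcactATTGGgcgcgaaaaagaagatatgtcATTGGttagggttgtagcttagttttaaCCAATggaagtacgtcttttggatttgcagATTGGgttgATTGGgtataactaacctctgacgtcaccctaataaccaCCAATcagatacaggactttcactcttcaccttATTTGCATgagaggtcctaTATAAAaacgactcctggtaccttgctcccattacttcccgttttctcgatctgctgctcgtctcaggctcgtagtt

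The first comparison asked how the histone genes differed between G12V and parental MCF10A cells. HRAS, the introduced gene, read 72.6 and 65.9 CPM in MCF10A and 631 and 515 CPM in G12V. Of 14376 genes tested by edgeR's quasi-likelihood test, 1575 were called, that is, differed by more than 0.5 on the log2 scale at an adjusted p under 0.05 (11% of the genes tested). None of the 24 histone genes tested was called by this test, by the edgeR exact test (2536 genes called) or by DESeq2 (2307 genes called). With the replicate number as a block, which is not known to pair these libraries, 5 histone genes were called among 4158 genes. At an unadjusted p under 0.05, 4 of 24 passed in edgeR's quasi-likelihood test, as did 25.6% of all genes. In the exact test 4 passed and in DESeq2 1, and the shares over all genes are not given here for these tests. The log2 fold changes of the 24 ran from −1.90 to 1.36, with 17 above 0 and a median of 0.41, beside a median of −0.001 and 49.9% above 0 over all genes. The median was 0.91 without MCF10A replicate 2. Most epithelial markers of the parental cells were lower in G12V: 6 of 8 were called lower. KRT14, CDH1 and TP63 were at 0.535 CPM or less in both G12V libraries, while KRT5 still read 936 and 1220 CPM. KRT8 overlapped between the groups, and 1 of the 8 had a log2 fold change above 0 (0.18). The 8 markers summed to 6856 and 8415 CPM in MCF10A and 1363 and 1662 CPM in G12V. Of 9 fibroblast markers LUM was called higher and FAP lower, and of 6 leukocyte markers CD68 was called higher, with PTPRC at 0 in both G12V libraries. The 9 fibroblast markers summed to 91.9 and 108 CPM in MCF10A and 54.5 and 61.3 CPM in G12V, and the 6 leukocyte markers to 32.0 and 50.7 CPM in MCF10A and 60.6 and 114 CPM in G12V. The part of these changes in the histone values was not tested. In these bulk libraries fewer cells that express a gene and less RNA per cell cannot be told apart.

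The genes for H2B made up 11 of the 24 tested, and 9 of them had a log2 fold change above 0. HIST1H2BK, which encodes an H2B subtype, read 21.6 and 38.6 CPM in MCF10A and 40.9 and 57.3 CPM in G12V. Both G12V libraries lay above both MCF10A libraries, at a log2 difference of 0.70 (SE 0.33, adjusted p = 0.259 in edgeR). For HIST1H2BK this difference fell to 0.37 when MCF10A replicate 1 was left out and to 0.44 when G12V replicate 2 was, and it came to 1.18 with MCF10A replicate 2 omitted. HIST1H2BD read 3.50 and 10.97 CPM in MCF10A and 7.31 and 11.7 CPM in G12V, and HIST2H2BE read 3.23 and 8.76 CPM in MCF10A and 6.58 and 9.81 CPM in G12V. For both genes only MCF10A replicate 1 lay clearly below the other libraries and the groups overlapped, with log2 fold changes of 0.39 (SE 0.56) and 0.45 (SE 0.52) that became −0.19 and −0.08 without that library. HIST2H2BC, an annotated H2B copy in the cluster on chromosome 1, read 2.32 and 3.66 CPM in MCF10A and 3.25 and 3.57 CPM in G12V.

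Among the H2A genes HIST3H2A read 11.1 and 31.8 CPM in MCF10A and 17.9 and 43.4 CPM in G12V. The replicates of a group differed by more than the groups did, and the log2 fold change of 0.51 (SE 0.60) became −0.05 without MCF10A replicate 1 and −0.26 without G12V replicate 2. HIST1H2AC read 5.18 and 15.99 CPM in MCF10A and 9.41 and 9.95 CPM in G12V, so that both G12V libraries lay between the MCF10A libraries. HIST1H2AG read 0.545 and 1.01 CPM in MCF10A and 0.428 and 0.491 CPM in G12V, HIST1H2AE read 0.364 and 0.529 CPM in MCF10A and 0.770 and 0.803 CPM in G12V, and HIST2H2AC stayed within 0.455 to 0.714 CPM in all 4. HIST1H1C, encoding the linker histone H1.2, read 5.45 and 10.7 CPM in MCF10A and 11.03 and 22.8 CPM in G12V. Its lowest G12V library lay just above its highest MCF10A library, the log2 fold change being 1.07 with an SE of 0.48 (adjusted p = 0.23 in edgeR), and leaving out G12V replicate 1 gave a call, with 1.50 (adjusted p = 0.0253). Leaving out G12V replicate 2 lowered the log2 fold change of HIST1H1C to 0.45, and leaving out MCF10A replicate 1 lowered it to 0.68. It rose to 1.63 when MCF10A replicate 2 was omitted, and none of these 3 omissions gave a call.

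Of the lower genes, 3 H2B genes passed an unadjusted p under 0.05 upward (12.7% of all genes) and 1 downward (12.8% of all genes), and they are named here after their values were seen. HIST1H2BC had 15 and 15 counts in MCF10A and 28 and 46 in G12V (log2 fold change 1.27, SE 0.45, adjusted p = 0.148 in edgeR). HIST1H2BJ had 4 and 8 counts in MCF10A and 19 and 13 in G12V (1.36, SE 0.55, adjusted p = 0.187 in edgeR), and HIST3H2BB had 6 and 5 counts in MCF10A and 14 and 13 in G12V (1.24, SE 0.49, adjusted p = 0.18 in edgeR). All 3 had groups that did not overlap at counts of at most 46 a library. HIST1H2BH went the other way, with 18 and 19 counts in MCF10A and 9 and 1 in G12V (−1.90, SE 0.77, adjusted p = 0.19 in edgeR), and without G12V replicate 1 it was called at −4.05 (adjusted p = 0.0306) against the single count of G12V replicate 2.

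Only 3 H3 and 2 H4 genes passed the filter on low counts. HIST1H3H had 14 and 19 counts in MCF10A and 27 and 36 in G12V, and HIST2H3D had 19 and 12 in MCF10A and 38 and 24 in G12V. Both pairs of groups were apart, with log2 fold changes of 0.90 (SE 0.43) and 0.95 (SE 0.47) and adjusted p of 0.26 and 0.28 in edgeR. HIST1H3E went the other way, with 10 and 12 counts in MCF10A and 6 and 9 in G12V, and its groups were also apart (−0.58, SE 0.51, adjusted p = 0.558 in edgeR). HIST1H4C, an H4 gene, had 13 and 16 counts in MCF10A and 14 and 11 in G12V, and the groups overlapped. Over the 24 tested genes the groups were apart in 10 upward (27.5% of all genes) and in 3 downward (27.4% of all genes).

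**Figure D3:**
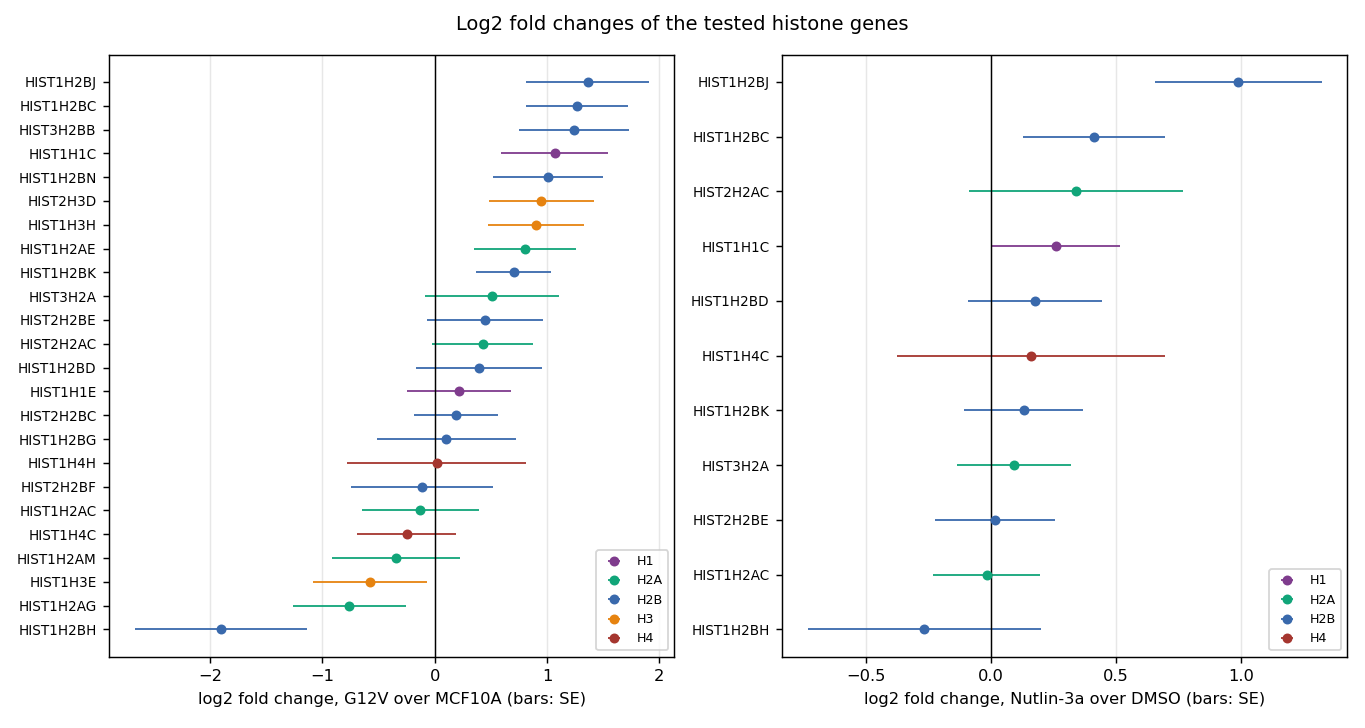
Each point is the log2 fold change of a tested histone gene from the edgeR fit across all genes, with its standard error as a bar and the histone class as colour, for G12V over MCF10A (24 genes, left) and Nutlin-3a over DMSO (11 genes, right). Values run from −1.90 to 1.36 on the left and from −0.27 to 0.99 on the right, and this fit called none of these genes in either comparison.

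The summed level of all 73 genes, which does not depend on the filter, was 67.0 and 136 CPM in MCF10A and 117 and 174 CPM in G12V. The second MCF10A library lay above the first G12V library, so that the groups overlapped. The 6 leading genes showed the same order, with sums of 50.1 and 117 CPM in MCF10A and 93.1 and 155 CPM in G12V. The 67 other genes summed to 17.0 and 18.8 CPM in MCF10A and 23.8 and 19.0 CPM in G12V. By class, H1 read 6.18 and 11.5 CPM in MCF10A and 12.4 and 23.5 CPM in G12V, and H3 read 3.18 and 3.13 CPM in MCF10A and 4.75 and 4.42 CPM in G12V, both with groups apart. Most of the H1 sum was HIST1H1C, at 5.45 and 10.7 CPM in MCF10A and 11.03 and 22.8 CPM in G12V. The other tested H1 gene, HIST1H1E, overlapped between the groups. H2B read 35.7 and 67.1 CPM in MCF10A and 65.5 and 88.0 CPM in G12V, an overlap that did not hold under other scalings: the groups were apart with library totals alone (36.4 and 64.3 against 69.4 and 84.6) and with upper-quartile factors (35.8 and 66.7 against 66.8 and 86.4). H2A and H4 overlapped under each of these scalings, with H4 at 2.64 and 2.47 CPM in MCF10A and 2.99 and 1.43 CPM in G12V.

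Replicate 2 was above replicate 1 in both groups for the 6 leading genes. In MCF10A the ratio of replicate 2 to replicate 1 was above 1 on the log2 scale in 4 of 24 tested histone genes and in 2.32% of all genes, at 1.54 for HIST1H2AC, 1.52 for HIST1H2BD, 1.48 for HIST3H2A and 1.31 for HIST2H2BE. In G12V it was above 1 in 2 of 24 and in 2.82% of all genes, at 1.25 for HIST3H2A and 1.02 for HIST1H1C. The libraries also differed in cell cycle genes, in the opposite direction. The summed level of 36 DNA replication and G1/S genes was 3735 and 2041 CPM in MCF10A and 3790 and 1638 CPM in G12V, and that of 18 mitosis and G2/M genes was 3240 and 2327 CPM in MCF10A and 3618 and 2198 CPM in G12V. RNAs without a poly(A) tail, such as RMRP, summed to 9.82 and 8.59 CPM in MCF10A and 14.97 and 7.63 CPM in G12V. The part of these differences in the histone values was not tested, and with 2 libraries a group no correlation is given.

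**Figure D4:**
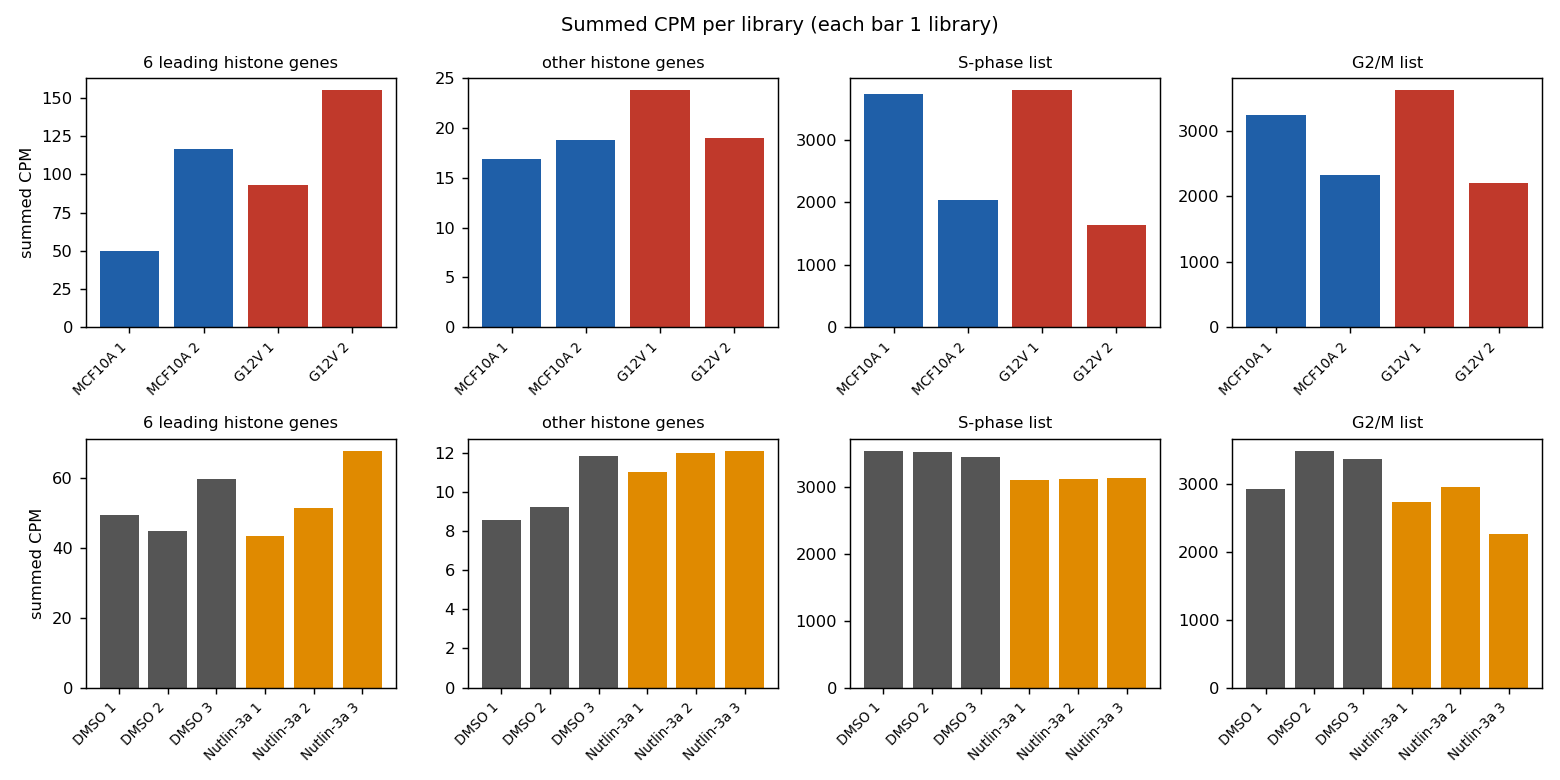
Each bar is the summed CPM of 1 library for the 6 leading histone genes, the other histone genes, 36 S-phase genes and 18 G2/M genes, with the untreated experiment in the upper row and the Nutlin-3a experiment in the lower row. In the upper row the leading histone genes are higher and both cell cycle lists lower in replicate 2 of MCF10A and of G12V, and in the lower row the Nutlin-3a libraries lie below the DMSO libraries for the S-phase list, while for the G2/M list the highest Nutlin-3a library (2949) lies just above the lowest DMSO library (2927).

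The second comparison asked whether the histone genes responded to Nutlin-3a after 4 h. CDKN1A, the p53 target that encodes the cell cycle inhibitor p21, read 624, 673 and 666 CPM in DMSO and 2712, 2688 and 3349 CPM in Nutlin-3a, and MDM2 read 122, 102 and 115 CPM in DMSO and 814, 509 and 646 CPM in Nutlin-3a. Both were called, with log2 fold changes of 2.16 (SE 0.13) and 2.54 (SE 0.18). Of 13529 genes tested, 23 were called (0.17%), 21 of them higher. None of the 11 histone genes tested was called by edgeR's quasi-likelihood test, by the edgeR exact test (84 genes called) or by DESeq2 (88 genes called). Blocking on the replicate number gave no call among them either. An unadjusted p under 0.05 was reached by 1 of 11 upward in edgeR (1.6% of all genes) and by none downward (1.83% of all genes), or 3.42% of all genes in both directions. In DESeq2 0 of 11 reached it, and the share over all genes is not given here for that test. Of the 11, 9 had a log2 fold change above 0 (51.8% of all genes), and their median was 0.16, beside 0.007 over all genes. With 1 library left out it ranged from 0.008 (Nutlin-3a replicate 3 omitted) to 0.36 (DMSO replicate 3 omitted), and it came to 0.31 when Nutlin-3a replicate 1 was omitted and to 0.10 and 0.08 when DMSO replicate 1 or 2 was.

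The 6 leading genes overlapped between the treatments. HIST1H2AC read 20.0, 14.8 and 24.2 CPM in DMSO and 16.6, 17.7 and 23.9 CPM in Nutlin-3a, with a log2 fold change of −0.02 (SE 0.21). HIST1H2BK read 11.1, 12.4 and 14.2 CPM in DMSO and 10.2, 12.2 and 19.0 CPM in Nutlin-3a (0.13, SE 0.24). Only Nutlin-3a replicate 3 stood above the DMSO libraries for this gene. HIST3H2A read 7.69, 6.99 and 8.17 CPM in DMSO and 6.28, 7.32 and 10.8 CPM in Nutlin-3a (0.09, SE 0.23), and HIST1H1C read 3.48, 5.15 and 5.72 CPM in DMSO and 4.43, 6.76 and 5.99 CPM in Nutlin-3a (0.26, SE 0.26). HIST1H2BD and HIST2H2BE lay between 2.16 and 5.73 CPM in all 6 libraries, with log2 fold changes of 0.18 (SE 0.27) and 0.02 (SE 0.24).

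The groups were apart for 2 of the 11 tested genes, both upward (3.7% of all genes), and for none downward (4.38% of all genes). HIST1H2BJ had 10, 9 and 12 counts in DMSO and 14, 20 and 23 in Nutlin-3a, and it was the gene that passed unadjusted (log2 fold change 0.99, SE 0.33, adjusted p = 1.0 in edgeR's fit across all genes). HIST1H2BC had 16, 23 and 25 counts in DMSO and 26, 26 and 27 in Nutlin-3a (0.41, SE 0.28). HIST1H4C had 6, 22 and 28 counts in DMSO and 14, 17 and 27 in Nutlin-3a, and HIST1H2BH had 8, 19 and 26 in DMSO and 15, 17 and 9 in Nutlin-3a, with wide spreads in both groups. HIST2H2AC, the remaining tested gene, had 5 to 15 counts in each library. Of the untested genes among the 15 highest, HIST1H2AG had 14, 6 and 8 counts in DMSO and 18, 9 and 9 in Nutlin-3a, HIST1H2BN had 5 to 14 counts a library, HIST1H2BG 5 to 10 and HIST1H3D 4 to 15. No H3 gene reached the filter, and the 17 H3 rows together held 35, 18 and 30 counts in DMSO and 26, 31 and 23 in Nutlin-3a.

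All 89 rows summed to 57.9, 53.9 and 71.4 CPM in DMSO and 54.4, 63.2 and 79.9 CPM in Nutlin-3a, with overlapping groups. Replicate 3 was highest in each treatment. The same replicate was also highest in RNAs without a poly(A) tail, which summed to 18.3, 11.04 and 47.7 CPM in DMSO and 10.0, 9.24 and 52.1 CPM in Nutlin-3a, and the part of this in the histone sums was not tested. The 36 DNA replication and G1/S genes summed to 3539, 3521 and 3438 CPM in DMSO and 3099, 3107 and 3124 CPM in Nutlin-3a. None of them was called, and 18 of the 36 had groups apart downward against 4.38% of all genes. None of the 11 tested histone genes did, which with so few genes cannot be told from the share of 4.38%. Of these 11, 5 had a mean under 2 CPM. In 2 of the 36, PCNA and LIG1, the groups were apart upward with TMM scaling (3.7% of all genes). The 18 mitosis and G2/M genes summed to 2927, 3490 and 3363 CPM in DMSO and 2738, 2949 and 2260 CPM in Nutlin-3a. None of these 18 was called, all had a log2 fold change below 0, and 9 had groups apart downward. Their summed groups overlapped with TMM scaling and were apart with library totals alone and with upper-quartile factors.

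The 2 tables cannot be set side by side as levels, since their annotations differ. HIST1H2AC spans 546 bases in the table of untreated cells and 14972 bases in the other, and HIST1H2BC spans 438 and 9038 bases. HIST2H2BC had 51 to 83 counts a library in the former and 1 to 4 in the latter, and HIST2H3D had 12 to 38 and at most 1. The cause of these differences was not tested.

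Variant histones, which are also made outside S phase and mostly from polyadenylated mRNAs, were the nearest group for comparison. Of 12 such genes only H2AFX, which is known to have both kinds of mRNA end, had the stem-loop. Among the 10 tested in the first comparison 1 was called, H2AFY2, encoding macroH2A2, at 23.9 ± 1.57 CPM in MCF10A and 10.2 ± 0.212 CPM in G12V (SD, n = 2 each), with a fold change of −1.23 on the log2 scale (SE 0.23, adjusted p = 0.0232 in edgeR). It was not called without MCF10A replicate 1 (adjusted p = 0.18) or MCF10A replicate 2 (adjusted p = 0.0593). H1F0, the linker histone H1.0, read 44.95 and 69.2 CPM in MCF10A and 24.97 and 29.1 CPM in G12V, with both G12V libraries lower (−1.08, SE 0.27, adjusted p = 0.0553 in edgeR), and DESeq2 called it (adjusted p = 0.00731). H3F3B, for the variant H3.3, read 468 and 398 CPM in MCF10A and 727 and 595 CPM in G12V, with groups apart (0.61, SE 0.23, adjusted p = 0.168 in edgeR). H3F3A is listed at 0 in all 4 untreated libraries, where its row overlaps that of the pseudogene H3F3AP4, and it read 12.4 to 15.2 CPM in the Nutlin-3a experiment. H2AFZ, H2AFX, H2AFJ, H1FX and CENPA overlapped between MCF10A and G12V, and H2AFY and H2AFV were lower in both G12V libraries, though not with library totals alone, with adjusted p of 0.416 and 0.325 in edgeR. Differences between the histone clusters and the variants were not tested.

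In the Nutlin-3a experiment none of the 11 variant histone genes tested was called by edgeR's quasi-likelihood test, with 1 of 11 at an unadjusted p under 0.05. This was CENPA, the histone H3 variant of the centromere, at 35.6, 38.2 and 36.3 CPM in DMSO and 21.2, 28.4 and 20.8 CPM in Nutlin-3a (log2 fold change −0.64, SE 0.14, adjusted p = 0.339 in edgeR). All Nutlin-3a libraries lay below all DMSO libraries, and CENPA was called when the replicate number entered as a block (adjusted p = 0.00519 in edgeR) and by DESeq2 (adjusted p = 0.0265). HJURP, the chaperone that loads CENPA, was called lower, at 77.6, 77.6 and 88.4 CPM in DMSO and 41.0, 47.0 and 36.4 CPM in Nutlin-3a (−0.97, SE 0.12, adjusted p = 0.0303 in edgeR). Leaving out any 1 of the 6 libraries ended that call, with adjusted p from 0.0777 without Nutlin-3a replicate 2 to 0.165 without DMSO replicate 2. The other variants tested had log2 fold changes between −0.28 and 0.17.

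Genes for the transcription and 3′ processing of histone mRNA were tested in both experiments, and 0 of 25 was called in either by edgeR's quasi-likelihood test, with 5 of 25 and 1 of 25 at an unadjusted p under 0.05, beside 25.6% and 3.42% of all genes. SLBP, which holds the stem-loop, read 91.2 and 61.6 CPM in MCF10A and 50.2 and 35.7 CPM in G12V, below both MCF10A libraries (log2 fold change −0.83, SE 0.28, adjusted p = 0.121 in edgeR). In the Nutlin-3a experiment it read 103, 104 and 129 CPM in DMSO and 74.8, 94.6 and 102 CPM in Nutlin-3a (−0.31, SE 0.15, adjusted p = 1.0 in edgeR). LSM10, a subunit of the U7 particle, read 28.0 and 21.2 CPM in MCF10A and 44.9 and 33.9 CPM in G12V (0.68, SE 0.25, adjusted p = 0.161 in edgeR), and 33.4 to 45.3 CPM in the Nutlin-3a experiment with overlapping groups. NPAT, the coactivator at the histone loci, read 31.4 and 24.4 CPM in MCF10A and 21.8 and 19.8 CPM in G12V (−0.42, SE 0.23, adjusted p = 0.327 in edgeR). SLBP, LSM10 and NPAT were picked after their values were seen. In G12V, SLBP and LSM10 were called by edgeR with the replicate number as a block (adjusted p = 0.000732 and 0.00555). That number is not known to pair these libraries. With 1 library left out the log2 fold change of SLBP ran from −1.10 to −0.49. Of the 4 highest genes of this list in the untreated cells, SNRPB overlapped between the groups, SNRPE and SYMPK were higher in both G12V libraries and UPF1 was lower, with adjusted p from 0.362 in edgeR upward. Of 23 genes for general cleavage and polyadenylation and related cap and exosome factors, such as PAPOLA, and of 21 histone chaperones, edgeR called 0 and 0 in G12V, with 1 and 0 at an unadjusted p under 0.05, and 0 and 1 in Nutlin-3a, the 1 being HJURP.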

How the data were processed

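Poly(A)-selected RNA was sequenced in 10 libraries. Per the labels, the authors used TopHat, HTSeq, edgeR and hg19. The deposited values are raw counts per gene without normalization, in 2 tables with different annotations, and the strand setting and the treatment of multi-mapped reads are not given in the sources used here. Starts in both tables are 0-based and are written 1-based here.

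Fits were made for each comparison separately in edgeR 4.0.16 (R 4.3.3, limma 3.58.1), using filterByExpr at its defaults, TMM scaling, the quasi-likelihood F-test, p-values adjusted after Benjamini and Hochberg, and a prior count of 0.125. A gene was called when its adjusted p was under 0.05 and its log2 fold change exceeded 0.5 in size. An SE is that size divided by the square root of F. Scripts were tested on simulated data. Alternatives included DESeq2 1.42.0, other scalings and filters, a replicate block and leaving out each library. DMSO and Nutlin-3a libraries both carry the labels' numbers 1 to 3. Deviations from the group means correlated at r = 0.624, 0.603 and 0.639 across 13529 genes for equal numbers, and the replicate block takes the numbers to pair the libraries. The main fit did not use this pairing, so its SEs and p-values are those of an unpaired comparison. No libraries were duplicates. Sequences were read from GRCh37, and promoter windows start from each table's gene starts.

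The histone genes and the lists were chosen with earlier results of these data known. Genes named were HRAS, CDKN1A, MDM2, histone genes called or among the 15 highest by mean CPM in a table, duplicated and testis histone genes, tested variant histones, and of other lists the called and up to 4 highest members. Any others were named after their values were seen.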

Additional observations from a re-analysis of the deposited data

How the results depend on the processing

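In G12V against MCF10A, 1575 genes were called, 2536 by the edgeR exact test and 0 to 2129 with 1 library left out, the 0 without MCF10A replicate 1. Histone genes called were 0, and 0 to 2 with 1 library left out. Replicate numbers are shared by both groups but are not known to pair the libraries: with the replicate block 4158 genes and 5 histone genes were called, HIST1H1C, HIST1H2BC, HIST1H2BK and HIST3H2A higher and HIST1H2BH lower. The correlation of same-numbered deviations was 0.494, a single value, since with 2 libraries a group both pairs must give the same one. The median log2 fold change of histone genes was 0.298 to 0.913 with 1 library left out, and the log2 ratio of their summed CPM was 0.522, or 0.437 to 0.553 over other scalings and without HIST1H2BK.

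In Nutlin-3a against DMSO, 23 genes were called, 88 by DESeq2, 84 by the exact test, 99 with no filter on low counts, 165 with the replicate block and 7 to 11 with 1 library left out. Histone genes called were 0 under every alternative run. The log2 ratio of their summed CPM was 0.109, or 0.0716 to 0.166.

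Log2 fold changes that turned direction were those of genes that were not called. In G12V, HIST1H2AC was 0.0504 with the replicate block. With 1 library left out, ranges crossed 0 for HIST1H2AC (−0.70 to 0.90), HIST3H2A (−0.26 to 1.46), HIST1H2BD (−0.19 to 1.44), HIST2H2BE (−0.0789 to 1.34), HIST2H2BC (−0.0788 to 0.55), HIST2H2BF (−1.20 to 0.49), HIST1H2BG (−0.48 to 1.20), CENPA (−0.63 to 0.17), H2AFX (−1.06 to 0.35), H2AFZ (−0.22 to 0.55), H1FX (−0.24 to 0.0789) and MDM2 (−0.17 to 0.13). Of the named histone genes that kept their direction, the value moved by over 1.5 times for HIST1H1C (0.45 to 1.63), HIST1H2BK (0.37 to 1.18), HIST1H2BC (0.83 to 1.60), HIST1H2BH (−4.05 to −1.09), HIST2H3D (0.62 to 1.37), HIST1H3E (−0.93 to −0.29), HIST1H2AG (−1.11 to −0.25), HIST1H4C (−0.40 to −0.11) and HIST2H2AC (0.24 to 0.60). In Nutlin-3a, library totals alone gave HIST2H2BE −0.0258 and H3F3B −0.00741. With 1 library left out, ranges crossed 0 for HIST1H2AC (−0.20 to 0.16), HIST1H2BK (−0.17 to 0.31), HIST3H2A (−0.17 to 0.25), HIST1H2BD (−0.0341 to 0.34), HIST2H2BE (−0.15 to 0.13), HIST1H2BH (−0.64 to 0.11), HIST1H4C (−0.28 to 0.56), H1FX (−0.20 to 0.0299), H2AFV (−0.12 to 0.0654), H2AFZ (−0.0569 to 0.0561), H3F3A (−0.144 to 0.00503), LSM10 (−0.137 to 0.111) and H3F3B (−0.0856 to 0.0916). The cause was not tested. In both tables most histone genes, 49 of 73 and 78 of 89, had too few counts to be tested.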
